A study of Mus musculus with 6 samples.

Results

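The genes described here are the nuclear-encoded subunits of the 5 complexes of the mitochondrial respiratory chain and ATP synthase, measured in mouse macrophages with and without oxidised low-density lipoprotein (oxLDL). Members were taken by symbol: Ndufa, Ndufb, Ndufc, Ndufs and Ndufv genes for complex I, Sdha to Sdhd for complex II, Uqcr genes and Cyc1 for complex III, Cox4i to Cox8 genes for complex IV and Atp5 genes for complex V. The symbols matched 95 rows of a table of 24054 genes. Of these, 9 assembly factors were set aside and 7 rows did not reach 10 counts in at least 3 of the 6 samples, which left 79 members: 37 of complex I, 4 of complex II, 9 of complex III, 12 of complex IV and 17 of complex V. All 79 were among the 11400 genes tested. The symbols do not follow the complexes in every case. Ndufa4 is now known as a subunit of complex IV, Cox7a2l helps complexes III and IV to associate, and Atp5s and Atp5sl are not subunits of ATP synthase.

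Bulk poly(A) RNA came from bone marrow-derived macrophages, cells grown from the marrow of wild-type C57BL/6 mice over 7 days in medium conditioned by L929 fibroblasts, a source of macrophage growth factor. The oxLDL group (n = 3) then received 50 µg/ml oxLDL, a modified lipoprotein taken up by scavenger receptors, for 24 hours. The untreated group (n = 3) was kept without it. Both groups carry the numbers 1, 2 and 3, and same-numbered samples are called pairs here. The study asked how oxidative stress alters the macrophage transcriptome. The labels do not say whether the numbers stand for separate animals or cultures, so p-values measure the spread between these samples, which may be technical. In bulk RNA, fewer cells of a type and less RNA per cell cannot be told apart.

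The respiratory chain sits in the inner mitochondrial membrane. Complex I takes electrons from NADH and complex II from succinate, both pass them to coenzyme Q, complex III hands them to cytochrome c, and complex IV delivers them to oxygen. Complexes I, III and IV pump protons, and complex V uses the returning protons to make ATP. In macrophages, activation state is tied to how these complexes are used, and succinate oxidation and reverse electron flow into complex I are known sources of inflammatory signals and reactive oxygen. The core of complexes I, III, IV and V also contains subunits encoded by mitochondrial DNA, which were not analysed here.

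Library totals ran from 13546572 to 15559310 counts. The number 3 samples stood apart from the others. Deviations from the group means correlated across genes at 0.66, 0.45 and 0.70 within pairs 1, 2 and 3. They also correlated at 0.63 between untreated 2 and oxLDL 1 and at 0.20 between untreated 1 and oxLDL 2. Every combination of a number 3 sample with a sample of another number and the other group was negative (-0.76 to -0.37). Results are therefore also given by pair and without pair 3. The summed level of 11 macrophage markers was 13461 to 37042 CPM (counts scaled to library size) in untreated and 9149 to 16407 CPM in oxLDL samples. Lyz2, a lysozyme gene of the list, stood at 19294, 13520 and 5204 CPM untreated and 10531, 5426 and 4292 CPM with oxLDL. Emr1, Itgam, Fcgr1, C1qa, C1qb and C1qc were also lower with oxLDL in each pair. Emr1 measured 9153, 6570 and 3088 CPM untreated and 1352, 451 and 2499 CPM with oxLDL. Cd68 was higher in each pair (740, 1096 and 1195 CPM untreated and 1613, 1643 and 1328 CPM with oxLDL). Csf1r, Cd14 and Mertk went different ways in the 3 pairs. Of 9 marker lists of other cells, the endothelial list was the highest, at 54.9 to 208 CPM untreated and 199 to 246 CPM with oxLDL. Most of it was Vwf and Kdr, while its defining markers Tek and Cdh5 were at 0 and at no more than 0.432 CPM. The other 8 lists summed to no more than 38.0 CPM in any sample.

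Promoter windows were read for the members because nuclear factors that bind there are known to link the complexes. The windows come from RefSeq (GRCm38.p6) and run from 250 bases before to 50 bases after the annotated start. All 79 members matched a RefSeq gene, 3 of them through an older symbol, and 66 had a window (72 windows, since some genes have several starts). The 4 printed here belong to Cox5a, Ndufc2 and Sdhb, the members whose fold change was the lowest of complexes IV, I and II, and to Cox6a1, whose partner isoform Cox6a2 had the highest fold change. Of 5 motifs searched, 3 had a match in these windows on either strand, and capitals mark the matches: GCGCATGC of NRF1, CCGGAAG of ETS factors such as GABP, and GGGCGG of SP1. The windows lie at chr9:57520982-57521281 on the plus strand (Cox5a), chr7:97399753-97400052 on the plus strand (Ndufc2), chr4:140961021-140961320 on the plus strand (Sdhb) and chr5:115348909-115349208 on the minus strand (Cox6a1). Each is written 5′ to 3′ in the direction of the gene.
Cox5a: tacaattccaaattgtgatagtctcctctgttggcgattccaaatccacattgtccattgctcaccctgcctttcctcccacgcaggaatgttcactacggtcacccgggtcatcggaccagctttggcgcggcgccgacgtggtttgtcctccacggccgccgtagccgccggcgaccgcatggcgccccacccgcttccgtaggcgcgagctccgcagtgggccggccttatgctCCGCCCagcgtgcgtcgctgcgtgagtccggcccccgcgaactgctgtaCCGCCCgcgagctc
Ndufc2: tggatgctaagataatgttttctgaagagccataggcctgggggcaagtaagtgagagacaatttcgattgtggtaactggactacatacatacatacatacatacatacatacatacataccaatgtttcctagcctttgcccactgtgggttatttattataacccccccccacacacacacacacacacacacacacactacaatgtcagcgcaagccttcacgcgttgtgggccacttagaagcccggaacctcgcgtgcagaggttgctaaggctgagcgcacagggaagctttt
Sdhb: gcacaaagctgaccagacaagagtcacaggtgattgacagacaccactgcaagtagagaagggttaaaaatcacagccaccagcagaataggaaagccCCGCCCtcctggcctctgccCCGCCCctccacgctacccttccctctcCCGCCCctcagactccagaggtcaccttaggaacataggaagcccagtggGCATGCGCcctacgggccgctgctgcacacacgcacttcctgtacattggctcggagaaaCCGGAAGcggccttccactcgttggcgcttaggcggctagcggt
Cox6a1: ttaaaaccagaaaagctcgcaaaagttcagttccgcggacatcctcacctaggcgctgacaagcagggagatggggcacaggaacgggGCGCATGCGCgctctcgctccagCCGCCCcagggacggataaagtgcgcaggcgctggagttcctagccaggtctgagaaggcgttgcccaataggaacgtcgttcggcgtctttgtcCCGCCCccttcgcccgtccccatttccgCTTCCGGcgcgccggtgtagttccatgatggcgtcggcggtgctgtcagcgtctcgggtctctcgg

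The Cox6a1 window holds a pair of overlapping NRF1 matches, an ETS match and 2 SP1 matches. The Sdhb window holds 1 NRF1, 1 ETS and 3 SP1 matches. Cox5a holds 2 SP1 matches alone, and Ndufc2 holds none of the motifs, which says only that these letters are not in this window. Over all members, the NRF1 letters stood in 13.9% of windows, beside 5.36% of the windows of genes with 10 counts in 3 samples and 2.71% of all promoter windows. The letters AAGATGGCG of YY1 stood in 12.5% of member windows, 3.16% of those of expressed genes and 1.4% of all. The ETS letters stood in 22.2%, 18.5% and 8.86% in the same order. The letters TCAAGGTCA of estrogen-related receptors (ERR) stood in 2.78%, 0.247% and 0.423%, which for the members is 2 windows, those of Sdhd and Atp5g3. SP1 letters were in 38.9% of member windows, fewer than the 62.4% of expressed genes and close to the 35.7% of all. By complex, the 8 genes with YY1 letters were in complexes I and V (33 and 16 of the 66 genes with windows). Those of complex V include Atp5sl, which is counted there by symbol and is not a subunit of ATP synthase. NRF1 letters were found in every complex (3 genes of complex I, 1 of II, 2 of III, 1 of IV and 3 of V). A match is a description of sequence and was not tested for binding.

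No subunit of the respiratory chain passed the test for a change with oxLDL. With pairs as blocks, 0 of 79 members had an edgeR adjusted p below 0.05, where 5.89% of all 11400 genes did (1.91% higher and 3.98% lower). The smallest adjusted p among members was 0.0734, for Cox6a2. Without adjustment, 4 members had p below 0.05, all higher with oxLDL (Cox6a2, Ndufa1, Uqcrq and Ndufv1). This is 5.06% of members beside 29.0% of all genes. With upper-quartile scaling, 14 members and 31.4% of all genes had an unadjusted edgeR p below 0.05, and again no member passed. Without the block no member and no gene passed, and 3 members and 14.7% of all genes had an unadjusted p below 0.05. With the block, DESeq2 called 1 member (Cox6a2, adjusted p 0.000923) beside 16.3% of all genes, and limma-voom called none. DESeq2 without the block called no member and 7.65% of all genes.

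The fitted changes were small and their intervals narrow. The median absolute log2 fold change was 0.12 over members and 0.28 over all genes, with median standard errors (SE) of 0.14 and 0.17. For 76 of the 79 members the 95% interval of the fold change lay wholly within 2-fold in either direction, which held for 65.4% of all genes. The exceptions were Cox5a, Cox6a2 and Ndufc2. The log2 fold change was above 0 for 57 members and below 0 for 22, with a median of 0.11 beside 0.01 over all genes. These counts depend on the scaling. With upper-quartile scaling 74 members were above 0, with a median of 0.22 beside 0.12 over all genes. In 7 members all oxLDL samples lay above all untreated samples, and in none did they lie below, whereas 10.5% of all genes lay wholly above and 10.6% wholly below (21.1% together).

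**Figure D1:**
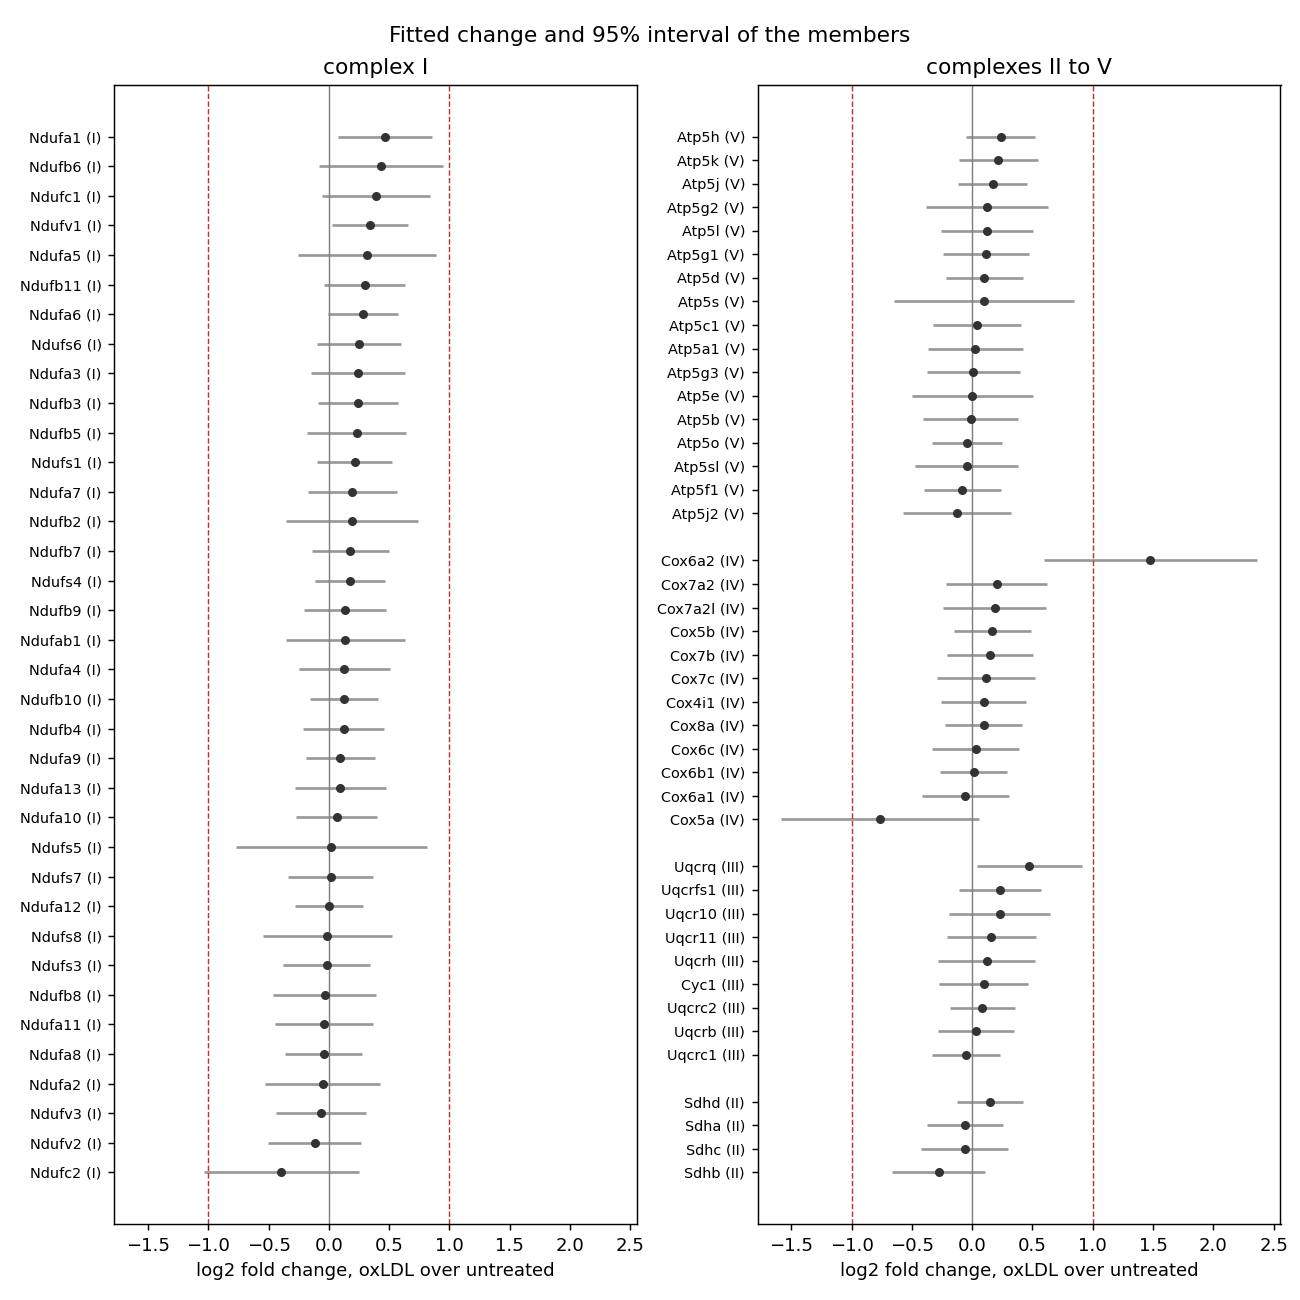
Fitted log2 fold change (oxLDL over untreated, horizontal axis) of 78 of the 79 members, with its 95% interval from the edgeR fit with pairs as blocks, complex I at left and complexes II to V at right. Dashed lines mark 2-fold. The intervals of Cox5a, Ndufc2 and Cox6a2 cross them, and all others drawn stay inside.

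The members did not move alike in the 3 pairs. In pair 1 the median log2 ratio of the members was -0.14 and 22 of 79 were above 0. In pair 2 it was 0.13 with 63 above 0, and in pair 3 it was 0.29 with 75 above 0. Over all genes the same medians were 0.01, 0.01 and -0.01. With upper-quartile scaling, which moves the all-gene medians to 0.14, 0.14 and 0.05, the members stood at -0.02, 0.26 and 0.36, so that relative to all genes they were again lower in pair 1 and higher in pairs 2 and 3. Counted gene by gene, 20 members were higher with oxLDL in all 3 pairs (25.3%, beside 26.4% of all genes) and 0 were lower in all 3 (beside 27.0%). Beyond a 2-fold ratio lay 2 members in pair 1, 2 in pair 2 and none in pair 3, those 2 being Cox5a and Cox6a2, whereas 16.7%, 18.9% and 9.08% of all genes did so.

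**Figure D2:**
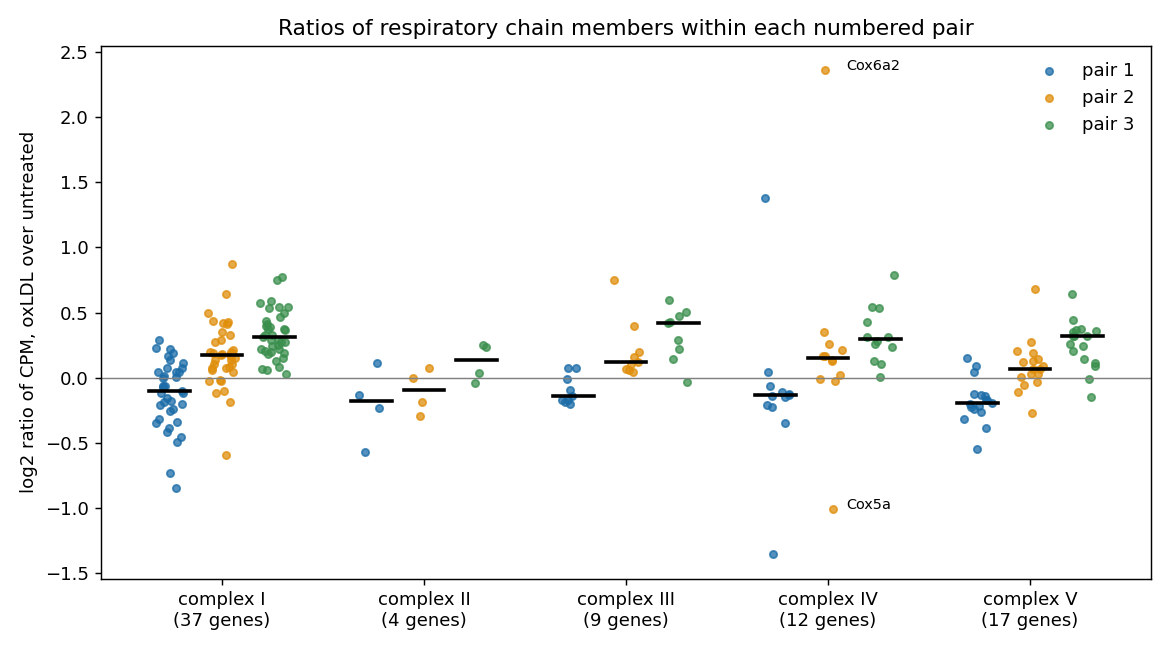
Log2 ratio of TMM-scaled CPM, oxLDL over untreated (vertical axis), of each member within each numbered pair, grouped by complex; points are genes and black bars are medians. In every complex the medians are lowest in pair 1 and highest in pair 3.

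The untreated samples themselves differed. Untreated sample 3 had the lowest of the 3 untreated levels in 66 of 79 members (83.5%), beside 43.2% of all genes. The median distance of its log2 level from the mean of untreated samples 1 and 2 was -0.37 over members and 0.01 over all genes. oxLDL sample 3 was the lowest of its group in 38 members (48.1%, beside 43.2% of all genes), with a median distance of -0.05. Of the 11 macrophage markers, 9 (Lyz2 among them) were also lowest in untreated sample 3 among the untreated samples, and Cd68 and Fcgr1 were highest there. Their part in the result was not tested.

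Summed levels per complex overlapped between the groups. All members together summed to 5391, 4941 and 4005 CPM untreated and to 4770, 5206 and 4776 CPM with oxLDL, which is 4779 ± 707 (SD, n = 3) against 4918 ± 250 CPM. The groups overlapped and their means differed by less than the SD of the untreated group. Complex I summed to 1264, 1171 and 945 CPM untreated and 1148, 1298 and 1164 CPM with oxLDL. Complex II summed to 560, 534 and 411 CPM untreated and 497, 510 and 433 CPM with oxLDL. In both, as in complexes III, IV and V, the untreated samples alone spanned a wider range than the oxLDL samples. For complex III the sums were 500, 457 and 419 CPM untreated and 468, 514 and 512 CPM with oxLDL. For complex IV they were 1101, 1045 and 803 CPM untreated and 940.5, 1068 and 1009 CPM with oxLDL. Complex V summed to 1965, 1734 and 1427 CPM untreated and 1716, 1816 and 1659 CPM with oxLDL. In every complex the untreated and oxLDL sums overlapped, and untreated sample 3 was the lowest of all 6 samples.

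**Figure D3:**
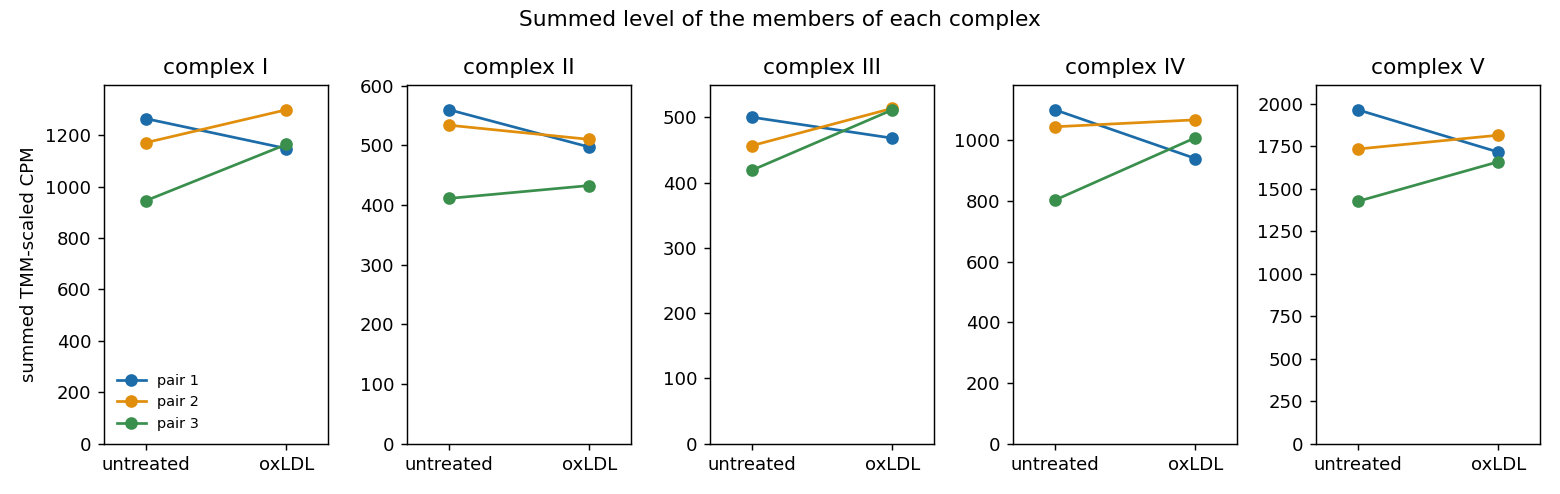
Summed TMM-scaled CPM (vertical axis, from 0) of the members of each complex in the untreated and oxLDL samples, same-numbered samples joined. The line of pair 1 goes down in every complex and that of pair 3 goes up in every complex.

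Complex I, the NADH dehydrogenase, had 37 of the 79 members and 6 of the 7 with separated groups, all with oxLDL higher (16.2% of its members, beside 21.1% of all genes in either direction and 10.5% higher). Its median log2 fold change was 0.13, with 27 of 37 members above 0, pair medians of -0.10, 0.17 and 0.31, and all 37 above 0 in pair 3. The pair 1 median is 0.02 with upper-quartile scaling, which is still below the all-gene median of 0.14. The 7 core subunits, most of which carry the flavin, iron-sulphur clusters or the quinone site, had a median of 0.01. The 30 accessory subunits, which surround the core and stabilise it, had 0.14. The 2 values were not tested against each other.

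Among the core subunits, Ndufv1, which binds NADH and the flavin, measured 30.9, 32.7 and 30.8 CPM untreated (samples 1, 2 and 3 in this order, as for every gene) and 35.1, 39.9 and 45.0 CPM with oxLDL. Every oxLDL sample was above every untreated sample, by a fitted log2 fold change of 0.34 ± 0.12 (SE; edgeR adjusted p 0.154). Its partner in the same module, Ndufv2, measured 58.0, 46.5 and 40.1 CPM untreated and 42.3, 47.8 and 41.8 CPM with oxLDL (-0.12 ± 0.15, adjusted p 0.629), with overlapping groups. Ndufs1, the largest core subunit, had 72.8, 64.6 and 55.9 CPM untreated and 79.8, 87.2 and 59.0 CPM with oxLDL. It was higher with oxLDL in each pair, while its groups overlapped. Ndufs7, which lies next to the quinone-binding region, had a log2 fold change of 0.01 ± 0.14.

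The accessory subunits with the highest fold changes were Ndufa1 and Ndufb6, both small membrane-arm proteins. Ndufa1 measured 15.6, 17.9 and 13.5 CPM untreated and 18.2, 24.0 and 22.8 CPM with oxLDL. The groups did not overlap, and the log2 fold change was 0.47 ± 0.15 (edgeR adjusted p 0.128). Ndufb6 measured 14.2, 11.4 and 12.8 CPM untreated and 14.7, 21.0 and 16.6 CPM with oxLDL (0.43 ± 0.20, adjusted p 0.227), with oxLDL 1 barely above the highest untreated sample. Ndufc1 measured 9.83, 9.29 and 7.99 CPM untreated and 10.4, 13.2 and 12.1 CPM with oxLDL (0.39 ± 0.17, adjusted p 0.216). Its groups did not overlap either. Ndufa6 and Ndufs6 were the remaining complex I members with separated groups, at 0.28 ± 0.11 and 0.25 ± 0.13.

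Ndufc2, the membrane-arm partner of Ndufc1, had the lowest fold change in complex I. It measured 60.5, 64.3 and 44.45 CPM untreated and 33.6, 42.6 and 53.6 CPM with oxLDL, so it was lower in pairs 1 and 2 (log2 ratios -0.85 and -0.59) and higher in pair 3 (0.27). Over 3 pairs the log2 fold change was -0.39 ± 0.24 (edgeR adjusted p 0.349). With pair 3 left out it was -0.72, with adjusted p 0.0116, in a fit that called 29.9% of all genes. Ndufs5 is uncertain, because its counts were not whole in any sample, a sign that reads were divided with near-identical sequences. It measured 21.6, 16.8 and 5.33 CPM untreated and 13.0, 26.4 and 5.93 CPM with oxLDL. Ndufa13 and, in complex IV, Cox7c also had no whole count in any sample. Without these 3 members the median of complex I was 0.14 and that of complex IV 0.10.

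Complex II, succinate dehydrogenase, is also an enzyme of the tricarboxylic acid cycle and was the complex with a median below 0 (-0.06; pair medians -0.18, -0.09 and 0.13). With upper-quartile scaling the median is 0.05, which remains below the all-gene median of 0.12 under that scaling. Its 4 members went different ways. Sdha, the flavoprotein that oxidises succinate, measured 284, 265 and 201 CPM untreated and 259, 265 and 195 CPM with oxLDL. Sample 3 was the lowest of each group, and the log2 fold change was -0.06 ± 0.12 (edgeR adjusted p 0.778, above 0 with upper-quartile scaling). Sdhb, the iron-sulphur subunit that passes electrons on from Sdha, measured 86.3, 82.6 and 69.9 CPM untreated and 58.1, 67.2 and 71.5 CPM with oxLDL. It was lower in pairs 1 and 2 and about level in pair 3, at -0.28 ± 0.15 over all pairs (adjusted p 0.284). Without pair 3 the value was -0.44 (adjusted p 0.0487), in a fit that called 29.9% of all genes.

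The membrane anchors of complex II, which bind coenzyme Q, were Sdhc and Sdhd. Sdhc measured 108, 103 and 63.4 CPM untreated and 91.7, 90.7 and 74.5 CPM with oxLDL (-0.06 ± 0.14, edgeR adjusted p 0.792; also above 0 with upper-quartile scaling). Sdhd measured 82.0, 82.9 and 77.2 CPM untreated and 88.9, 87.1 and 91.9 CPM with oxLDL. All its oxLDL samples were above all untreated samples, by a log2 fold change of 0.15 ± 0.10 (adjusted p 0.404).

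Complex III, the cytochrome bc1 complex, had a median log2 fold change of 0.12, with 8 of 9 members above 0 and pair medians of -0.14, 0.12 and 0.42. Uqcrq, a small subunit near the cytochrome b core, had the highest value. It measured 36.4, 32.8 and 41.4 CPM untreated and 38.3, 55.1 and 62.7 CPM with oxLDL, higher in each pair, while oxLDL 1 lay within the untreated range (0.47 ± 0.17, edgeR adjusted p 0.148). The redox subunits are Uqcrfs1, the Rieske iron-sulphur protein, and Cyc1, cytochrome c1. Uqcrfs1 measured 54.5, 60.6 and 49.0 CPM untreated and 57.5, 65.3 and 69.5 CPM with oxLDL (0.23 ± 0.13, adjusted p 0.311). Cyc1 measured 38.5, 33.3 and 44.5 CPM untreated and 33.4, 38.2 and 54.3 CPM with oxLDL, and was higher in both number 3 samples than in their own groups. The large matrix-side proteins Uqcrc1 and Uqcrc2, related to processing peptidases, had -0.05 ± 0.11 and 0.08 ± 0.10. Uqcrc1 is above 0 with upper-quartile scaling. Uqcrb had 0.03 ± 0.12.

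Complex IV, cytochrome c oxidase, held the members with the highest and the lowest fold change of all 79, Cox6a2 and Cox5a. Its median was 0.10, with 10 of 12 members above 0 and pair medians of -0.14, 0.15 and 0.29. Cox5a, a matrix-side subunit in the early assembly of the complex, measured 150, 124 and 70.9 CPM untreated and 58.6, 61.5 and 76.3 CPM with oxLDL. In pairs 1 and 2 it was lower with oxLDL by log2 ratios of -1.36 and -1.01, and in pair 3 the ratio was 0.10. Over all pairs the log2 fold change was -0.76 ± 0.31 with a 95% interval from -1.58 to 0.06 (edgeR adjusted p 0.194). Without pair 3 it was -1.19 (adjusted p 0.00363), and without the block and untreated sample 3 it was -1.07 (adjusted p 0.0379). These fits called 29.9% and 6.34% of all genes. No other fit called Cox5a, and each of these left out untreated sample 3.

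Cox5b, the other subunit with a 5 in its name and a zinc-binding protein rather than an isoform of Cox5a, did not follow it. The ratio of Cox5a to Cox5b reads was 2.50, 2.18 and 1.52 in untreated samples 1 to 3 and 1.02, 0.904 and 1.31 in the oxLDL samples. Every oxLDL sample was below every untreated sample in this ratio, which is not corrected for transcript length. The ratio was computed after the values of both genes were seen and was not tested.

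Cox6a2 encodes the isoform of subunit 6a best known from heart and skeletal muscle, and Cox6a1 the one found in most tissues. Cox6a2 measured 4.64, 3.24 and 24.3 CPM untreated and 12.3, 17.2 and 42.05 CPM with oxLDL. It was higher with oxLDL in each pair (log2 ratios 1.38, 2.36 and 0.79), and untreated sample 3 lay above oxLDL samples 1 and 2. The log2 fold change was 1.48 ± 0.34 (95% interval 0.60 to 2.36; edgeR adjusted p 0.0734, and 0.592 without the block). Without pair 3 it was 1.89 (adjusted p 0.010), in a fit that called 29.9% of all genes. Cox6a1 measured 96.1, 73.8 and 58.9 CPM untreated and 75.4, 82.8 and 59.3 CPM with oxLDL (-0.06 ± 0.14, adjusted p 0.810; above 0 with upper-quartile scaling).

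Of the reads of both 6a isoforms, Cox6a2 took 4.61% (95% exact binomial interval 3.60 to 5.80), 4.21% (3.08 to 5.59) and 29.2% (26.7 to 31.9) in untreated samples 1, 2 and 3. With oxLDL it took 14.0% (12.19 to 16.04), 17.2% (15.3 to 19.2) and 41.5% (38.9 to 44.1). The intervals cover counting error only. Within each pair the oxLDL interval lay above the untreated one, and the number 3 samples lay above all others. Like Cox6a2, the endothelial marker Vwf and the mast cell marker Kit were higher with oxLDL in each pair and highest in sample 3 of each group, but in both every oxLDL sample was above every untreated one. Vwf measured 15.7, 43.6 and 130 CPM untreated and 164, 212 and 225 CPM with oxLDL, and Kit 2.66, 7.56 and 21.9 CPM untreated and 23.2, 26.2 and 36.3 CPM with oxLDL. The other markers of these lists did not go with them. Pecam1 was lower with oxLDL in each pair (17.0, 14.8 and 6.69 CPM untreated and 2.76, 0.267 and 1.38 CPM with oxLDL). Kdr was lower in pairs 2 and 3, Tek was at 0, and Cdh5 was at no more than 0.432 CPM. Cpa3, Mcpt4, Ms4a2 and Mcpt8 were at no more than 0.478 CPM. The osteoclast marker Ctsk and the dendritic marker Ccr7 were also higher with oxLDL in each pair and highest in sample 3 of each group. Their groups overlapped like those of Cox6a2. Ctsk measured 0.955, 3.31 and 10.79 CPM untreated and 4.71, 4.74 and 13.97 CPM with oxLDL. Ccr7 measured 0.955, 0.648 and 7.03 CPM untreated and 1.55, 2.403 and 12.01 CPM with oxLDL. Acp5 of the osteoclast list was lower in each pair, and Xcr1 of the dendritic list in pairs 1 and 2.

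**Figure D4:**
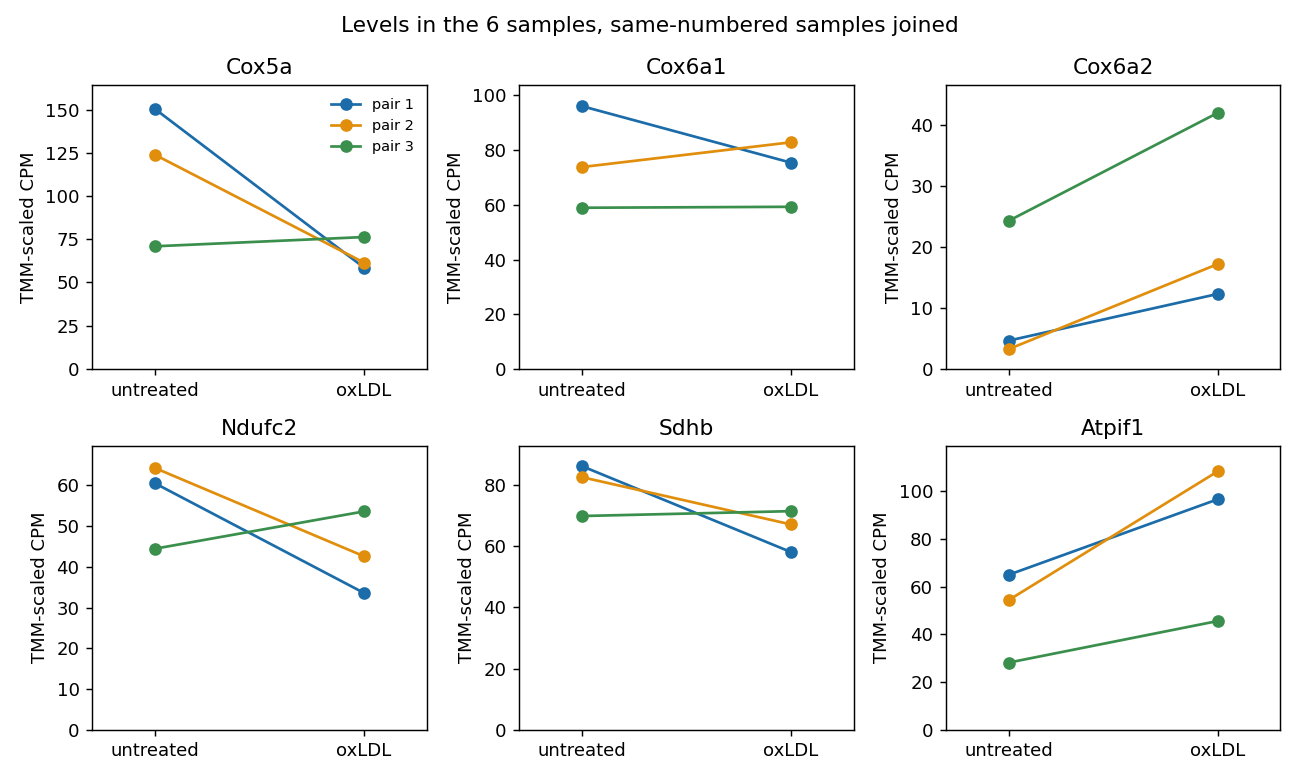
TMM-scaled CPM (vertical axes, from 0) of 5 members and of Atpif1, the inhibitor of ATP synthase, in the 6 samples, same-numbered samples joined. Cox5a, Ndufc2 and Sdhb go down in pairs 1 and 2 and not in pair 3, while Cox6a2 and Atpif1 go up in each pair.

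The other isoforms known from muscle, lung or testis were nearly without reads. Cox7a1 had 1 to 8 counts per sample, Cox6b2 1 to 3, and Cox4i2 and Ndufa4l2 no more than 1. Cox7b2, Cox8b and Cox8c had 0 counts in all 6 samples, where 3 counts, the limit a count of 0 allows, come to between 0.200 and 0.217 CPM. None of their partners passed the test. Cox4i1, an early-joining subunit, measured 204, 190 and 142 CPM untreated and 187, 209 and 173 CPM with oxLDL (0.10 ± 0.14, edgeR adjusted p 0.670). Cox6b1 had 0.01 ± 0.11, Cox8a 0.10 ± 0.12 and Cox7a2 0.20 ± 0.16. Cox7a2l, the supercomplex factor, measured 184, 223 and 159 CPM untreated and 190, 219 and 232 CPM with oxLDL (0.19 ± 0.16, adjusted p 0.493). Ndufa4, counted by symbol with complex I, measured 47.0, 48.0 and 28.4 CPM untreated and 42.2, 52.7 and 37.8 CPM with oxLDL (0.13 ± 0.15). Moving it to complex IV and leaving out the 3 other genes named above changed no median by more than 0.01.

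Complex V, ATP synthase, had the narrowest range of fold changes of the 5 complexes. Its 17 members ran from -0.13 to 0.24, with a median of 0.04 and pair medians of -0.20, 0.07 and 0.32, and in none were the groups separated. In the catalytic F1 head, Atp5b, the subunit that makes ATP, measured 457, 387 and 419 CPM untreated and 391, 405 and 454 CPM with oxLDL (-0.01 ± 0.15, edgeR adjusted p 0.961). Atp5a1, its structural partner, measured 444, 361 and 277 CPM untreated and 388, 378 and 320 CPM with oxLDL (0.03 ± 0.15). Both were lower in pair 1 and higher in pair 3 with oxLDL. The 5 F1 members spanned -0.01 to 0.10.

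The 3 genes Atp5g1, Atp5g2 and Atp5g3 encode the same c-ring protein with different targeting sequences. Atp5g1 measured 35.0, 34.5 and 26.9 CPM untreated and 32.0, 37.4 and 34.7 CPM with oxLDL (0.12 ± 0.14). Atp5g2 measured 105, 107 and 58.6 CPM untreated and 95.3, 98.7 and 91.5 CPM with oxLDL (0.13 ± 0.19), and its untreated sample 3 lay far below the other 5. Atp5g3 measured 86.9, 75.5 and 59.4 CPM untreated and 69.6, 80.4 and 71.2 CPM with oxLDL (0.01 ± 0.15). The peripheral stalk, which holds the head still, had members at both ends. Atp5h was higher in each pair, at 85.2, 75.8 and 59.2 CPM untreated and 90.5, 91.9 and 75.4 CPM with oxLDL (0.24 ± 0.11, edgeR adjusted p 0.229), and Atp5f1 had -0.08 ± 0.12, a sign that turns with upper-quartile scaling. Of the small membrane subunits, which take part in the dimers of the enzyme, Atp5k had 0.22 ± 0.13 and Atp5j2 -0.13 ± 0.17.

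Among other genes that serve the chain, few passed the test. In 10 lists of assembly factors, electron carriers, coenzyme Q synthesis, the tricarboxylic acid cycle, biogenesis regulators, carriers and membrane organisation, 128 genes were tested (1 of them, Atp5sl, is also counted above by its symbol), and 3 rose and 0 fell (2.34% higher, beside 1.91% of all genes). With DESeq2, 9 were higher and 2 lower with the block, and 5 higher and 2 lower without it. Without the block none passed in edgeR. The 3 were Atpif1, Sqrdl and Suox.

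Atpif1 encodes the inhibitory factor that stops ATP synthase from running backwards. It measured 65.0, 54.4 and 28.1 CPM untreated and 96.7, 108 and 45.6 CPM with oxLDL, so both number 3 samples were low and the groups overlapped. It rose within each pair, by 1.49, 1.99 and 1.62 times, and the log2 fold change was 0.76 ± 0.13 (edgeR adjusted p 0.0454, and 0.471 without the block). Relative to the catalytic subunit, the ratio of Atpif1 to Atp5b reads was 0.142, 0.141 and 0.0671 untreated and 0.247, 0.267 and 0.101 with oxLDL, higher in each pair.

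Sqrdl encodes sulphide:quinone oxidoreductase, which passes electrons from sulphide to coenzyme Q. It rose from 50.6, 51.1 and 60.6 CPM untreated to 85.4, 99.5 and 88.4 CPM with oxLDL, with all oxLDL samples above all untreated ones (0.75 ± 0.12, edgeR adjusted p 0.0450, and 0.103 without the block). Suox encodes sulphite oxidase, which passes electrons to cytochrome c. It rose from 5.87, 5.76 and 5.19 CPM untreated to 12.1, 10.8 and 8.83 CPM with oxLDL, again with separated groups (0.91 ± 0.16, adjusted p 0.0495, and 0.139 without the block). Both belong to the list of electron carriers and side entries, of which 2 of 11 genes rose, beside 1.91% of all genes. The list was not tested as a set. In the same list Prodh, the proline dehydrogenase that also feeds coenzyme Q, measured 1.09, 1.3 and 1.09 CPM untreated and 3.43, 3.20 and 2.90 CPM with oxLDL (1.45 ± 0.27, adjusted p 0.0545). Cycs, cytochrome c, measured 99.4, 87.3 and 150 CPM untreated and 71.7, 91.7 and 124 CPM with oxLDL (-0.23 ± 0.14).

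None of the 16 complex I, 7 complex II and III and 24 complex IV assembly factors passed. Of the complex I factors, Nubpl, which delivers iron-sulphur clusters, had the highest fold change (0.78 ± 0.20, edgeR adjusted p 0.0834) and Foxred1 the lowest (-0.28 ± 0.13). For complex II, Sdhaf2, which attaches the flavin to Sdha, measured 49.2, 47.7 and 47.1 CPM untreated and 37.9, 36.4 and 37.9 CPM with oxLDL (-0.36 ± 0.10, adjusted p 0.0978; DESeq2 0.184 with the block and 0.0246 without it). Its groups did not overlap. Sco2, a copper chaperone of complex IV, measured 4.30, 2.73 and 6.76 CPM untreated and 8.14, 7.34 and 9.26 CPM with oxLDL (0.91 ± 0.25, adjusted p 0.0937). The counts of Sco2 were not whole in any sample, so it is uncertain like Ndufs5. Higd2a (0.60 ± 0.12, edgeR adjusted p 0.0557) and Lrpprc (0.56 ± 0.12, adjusted p 0.0689) of the complex IV list were nearer the threshold. In both, all oxLDL samples were above all untreated ones. Of the 24 factors of this list, 11 had a log2 fold change above 0.

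Nor did any of 13 genes of coenzyme Q synthesis, 14 of the tricarboxylic acid cycle, 15 biogenesis regulators, 8 of nucleotide exchange and uncoupling and 14 of inner membrane organisation pass. Esrra, the estrogen-related receptor alpha that binds promoters of respiratory genes, measured 47.6, 39.0 and 37.2 CPM untreated and 21.5, 25.2 and 27.1 CPM with oxLDL. The groups did not overlap (-0.75 ± 0.17, edgeR adjusted p 0.0715; DESeq2 adjusted p 0.0178 with the block and 0.00543 without it). Ucp2, an inner membrane carrier, measured 732, 710 and 136 CPM untreated and 574, 368 and 85.5 CPM with oxLDL (-0.66 ± 0.18, adjusted p 0.0932; DESeq2 0.00981 with the block and 0.772 without it), with both number 3 samples far below the rest. Coq7, a hydroxylase of coenzyme Q synthesis, had 0.89 ± 0.24 (adjusted p 0.0964), Chchd6 of the cristae junctions 1.26 ± 0.29 (0.0747) and Ogdh of the tricarboxylic acid cycle 0.47 ± 0.15 (0.130), each with all oxLDL samples above all untreated ones. The counts of Ogdh were not whole in any sample, so its levels are uncertain. Cs, citrate synthase, often used as a measure of mitochondrial content, measured 267, 220 and 201 CPM untreated and 221, 233 and 197 CPM with oxLDL (-0.07 ± 0.14, above 0 with upper-quartile scaling).

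The number of members called depended on pair 3. Without it, edgeR with the block called 4 of 79 members, Cox6a2 higher and Cox5a, Ndufc2 and Sdhb lower, beside 29.9% of 11543 genes. Without pair 1 or without pair 2 it called no member and no gene, and 3 members and 1 member, respectively, had an unadjusted p below 0.05. In the fit without pair 3 the median over members was 0.01 and 41 were above 0, beside a median of 0.02 over all genes.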

How the data were processed

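Poly(A) RNA of 3 untreated and 3 oxLDL-treated samples was sequenced as paired-end reads from a stranded kit, per the labels' protocols. The authors deposited a table of expected counts per gene, and the submitters' processing notes list Bowtie2 2.1.0, RSEM 1.2.15 and edgeR (no version). These notes also list hg19, a human build, although symbols and samples are mouse; the annotation and strand setting are not given in the sources used here, so overlapping genes cannot be told apart. Of the values of a sample, 10.4% to 11.1% were not whole (tolerance 0.005), and all were rounded to whole numbers. The second deposited table, a TMM-normalised signal in CPM per its name, gave back whole reads for 100% of values, 99.94% of them equal to the rounded counts.

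The members and gene lists were chosen with earlier results of these data known. Genes were kept by filterByExpr (minimum count 10, minimum total 15), which left 11400, and scaled by TMM factors (0.942 to 1.06). The quasi-likelihood test of edgeR 4.0.16 (R 4.3.3, robust) was fitted over all 6 samples with group and sample number as terms, and Benjamini-Hochberg adjusted p-values below 0.05 over all genes counted as passed. Same-numbered samples deviated together (r = 0.66, 0.45 and 0.70, each above the limit of 0.1). Untreated 2 with oxLDL 1 (0.63) and untreated 1 with oxLDL 2 (0.20) were also above it. The limit therefore does not tell pair 1 from pair 2. The labels do not say what a number marks or what the word mix in the titles means. The fit without the number as a block, DESeq2 1.42.0, limma 3.58.1 on voom and on log2 (deposited value + 1), other scalings and filters and left-out samples were alternatives. Levels are TMM-scaled CPM from rounded counts. CPM is not per length, so levels were compared within a gene. Pair ratios are log2 CPM differences with a prior count of 2. The SE is the absolute log2 fold change over the root of F. Rn45s, a ribosomal RNA precursor, took 0.99% to 1.51% of counts. The code was tested on simulated counts.

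Every member was counted, and 1 of them is not reported here by itself. Named with values were, per complex, the 2 highest and 2 lowest fold changes, members with separated groups and the same sign in each pair (at most 4), isoform partners, and of other lists the genes that passed and the extremes. Further members and pathway genes (among them Ndufs1, Ndufs5, Ndufs7, Cyc1, Uqcrc2, Atp5b and Atp5a1) were added for their role, after their values were seen. Higd2a and Lrpprc were added for their adjusted p.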

Additional observations from a re-analysis of the deposited data

How the results depend on the processing

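The count of genes that passed was 672, and it was 0 without the replicate block in edgeR and 1853 by DESeq2 with it. For the 128 pathway genes the count of 3 became 0 without the replicate block, 11 by DESeq2 with it (2 of them lower) and 7 by DESeq2 without it (2 lower). DESeq2 called 16.3% of all genes with the block and 7.65% without it. For the members the count of 0 became 1 by DESeq2 with the block (Cox6a2). Leaving out samples, with or without the block, gave 0 to 3446 genes, 0 to 4 members and 0 to 16 pathway genes. The largest counts came without pair 3, and every fit without pair 1 or pair 2 gave 0. In unpaired fits, leaving out untreated sample 3 gave 737 genes, 1 member (Cox5a) and 3 pathway genes, and leaving out oxLDL sample 3 gave 31 genes. The median log2 fold change of complex II was -0.06 and ran from -0.25 (no replicate block, without untreated sample 3) to 0.03 with samples left out. The cause was not tested. No called value changed sign. Of 570 alternative values for the 30 named members, 564 kept their side of the threshold and 6 gained a call. Without untreated sample 3 and the block, the medians of complexes IV and V were -0.0041 and -0.11. Filters, DESeq2 size factors and leaving out Rn45s changed no call of a member. Alternatives with the members whose counts were never whole left out were chosen after seeing the data. With 3 samples a group, changes smaller than the intervals given could not be detected, and depth limits the low members such as Atp5s and Ndufb2.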
